A study of Mus musculus with 9 samples.

Results

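Capillary endothelial nuclei of the mouse heart were described here in 3 groups of 3 C57BL/6 mice whose sex is not stated. The mice were supplied at 8 weeks of age and acclimatized for a week before gavage. The sham group had the chest operation without ligation after 7 days of gavage with vehicle. I/R mice received the same vehicle, then ligation of the left anterior descending coronary artery for 30 min and reperfusion for 24 h. SBP mice received Shexiang Baoxin Pill (MUSKARDIA in the labels), a Chinese patent medicine, for the same 7 days and then the same ischemia and reperfusion. All mice were given penicillin after surgery, and nuclei from frozen heart tissue were profiled by droplet single-nucleus RNA sequencing of transcript 3′ ends, in which each captured molecule is counted once as a UMI. The study states that the tissue came from the heart below the site of ligation. The 9 libraries held 49171 nuclei (4576 to 6418 per library) and 10329520 to 18205985 UMIs each. Of the 48881 different cell barcodes, 290 occurred in 2 libraries. The study states more nuclei in all and another number of endothelial nuclei, so every share given here is of the nuclei in the files used and of the endothelial nuclei found by the genes named next.

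A nucleus was taken as capillary when at least 2 of 8 endothelial genes (Pecam1, Cdh5, Flt1, Ptprb, Cyyr1, Egfl7, Adgrl4, Mcf2l) and at least 2 of 9 capillary genes (Rgcc, Slc28a2, Lnx1, Ccdc85a, Meox2, Vwa3a, Kdr, Gpihbp1, Car4) had a UMI. It also had to lack endocardial, lymphatic and arterial genes (Npr3, Tmem108, Smoc1, Mmrn1, Reln, Sema3g, Mannr) and to hold at most 2 of 6 genes of other cells (Rbm20, Ldb3, Mhrt, Abca8a, Scara5, Csf1r). This chose 5455 nuclei, 11.1% of all nuclei, with 7627635 UMIs in total. Sham mice gave 391, 726 and 874 of them, I/R mice 576, 472 and 755, and SBP mice 492, 555 and 614. The median depth per library was 974 to 1239 UMIs. Since these genes chose the nuclei, their levels here describe the choice.

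Capillary endothelial cells form the wall of the smallest vessels, across which oxygen, fatty acids, nucleosides and water pass between blood and cardiomyocytes. They take up lipid through lipoprotein lipase anchored by Gpihbp1, the fatty acid receptor Cd36 and the binding protein Fabp4, and they sense VEGF through Kdr and Flt1. After injury, endothelium can display P-selectin and other adhesion molecules that slow passing leukocytes. Endothelial nuclei, like those of other tissues, carry a circadian clock, in which Arntl (BMAL1) and Clock drive Per, Cry and Nr1d genes that repress them in turn.

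The label was checked with genes that the choice did not use. Tcf15, a transcription factor of heart and muscle capillaries, had in capillary nuclei 19.5 times its level in all other nuclei (median over 9 libraries, lowest 8.72). Aqp7, a water and glycerol channel, stood at 14.7 times, Btnl9 at 15.7 times, Cd300lg at 16.6 times and Fabp4 at 12.2 times, with a median of 1739 CPM for Fabp4 (CPM scales the share of a gene in the UMIs summed over the capillary nuclei of a library to a common total). The highest ratio of 4091 genes was 21.8 for Slc26a10. Of 8 endocardial markers, Npr3, Tmem108 and Smoc1 were at 0 by the rule itself, and the 8 summed to 218 to 326 CPM over the 9 mice. Within this sum, members moved apart. Lsamp was at 110 to 203 CPM in sham, 37.0 to 48.8 CPM in I/R and 64.3 to 102 CPM in SBP. Vwf was at 87.2 to 125, 154 to 236 and 180 to 213 CPM. The 10 arterial markers summed to 235 to 478 CPM and the 7 lymphatic markers to 114 to 186 CPM, with 2 of each at 0 by the rule. The rule excluded no venous gene. The 7 venous markers, Vwf among them, summed to 494 to 962 CPM, above the endocardial, arterial and lymphatic sums in every mouse. Most of the other nuclei were not endothelial by the genes of the rule, so these ratios do not set capillary apart from other endothelial nuclei. A ratio between nuclei that were sorted by correlated genes is a description and no test.

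Membership was graded rather than sharp. Of the chosen nuclei, 1565 held exactly 2 of the capillary genes, 1456 held 3, and 3 held 9. Fabp4 was at 1156 CPM in the nuclei with 2 capillary genes, just inside the rule, and at 470 CPM in the 1750 nuclei with 1, just outside it. For Tcf15 the values were 52.2 CPM inside and 19.2 CPM outside. Vwf, of the endocardial and venous lists, was also higher just inside (206 CPM) than outside (163 CPM), but was at 96.4 CPM with 5 capillary genes. The venous gene Nr2f2 was at 116, 80.7 and 85.6 CPM in the same nuclei. Another 2243 nuclei failed only through an excluded endothelial gene and 313 only through more than 2 genes of other cells. Among the capillary nuclei themselves, the genes that varied most beyond counting noise, as a ratio of variance to that expected (median over libraries), were Malat1 (14.8), Pcdh9 (9.10), the fibroblast gene Abca8a (9.01) and Gpc6 (8.72). Tll1 ranked 9 of 5195 genes at 6.14, with 0.99 to 12.1 over single libraries, against a median of 1.17 for all genes.

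Transcripts of other cells were measured in the capillary nuclei before any comparison. The 9 cardiomyocyte markers summed to 9955, 9990 and 9392 CPM in sham, 4636, 3729 and 5175 CPM in I/R, and 8857, 3952 and 3345 CPM in SBP. Sham and I/R did not overlap, and SBP replicate 1 stood at the sham side in the sum, but not for each marker. Its Ttn was at 3165 CPM, against 2410 to 2750 CPM in sham and 1076 to 1175 CPM in I/R. Its Myh6 was at 903 CPM, against 3033 to 3304 CPM in sham and 649 to 2073 CPM in I/R. The 8 myeloid markers summed to 462 to 651 CPM in sham, 677 to 1934 CPM in I/R and 444 to 777 CPM in SBP, with I/R replicate 2 the highest. The 4 neutrophil markers summed to 71.3, 10.8 and 32.3 CPM in sham, 139.9, 489 and 142 CPM in I/R, and 199.5, 84.4 and 95.9 CPM in SBP, so that every I/R and SBP mouse lay above every sham mouse and I/R replicate 2 was again the highest. The 7 fibroblast markers summed to between 1078 and 1731 CPM in all groups, while members moved apart. Col1a2 was at 34.6 to 50.7 CPM in sham, 149.5 to 605 CPM in I/R and 133 to 236 CPM in SBP, and Abca8a, 1 of the 6 genes of other cells, at 214 to 530, 85.4 to 128 and 149 to 332 CPM. In the capillary nuclei of sham, 64.5%, 72.0% and 67.8% held at least 1 of the 6 genes of other cells, against 49.5%, 42.6% and 37.6% in I/R and 50.2%, 47.4% and 38.3% in SBP. These sums moved with several results given further on, and their part in those results was not tested.

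**Figure D1:**
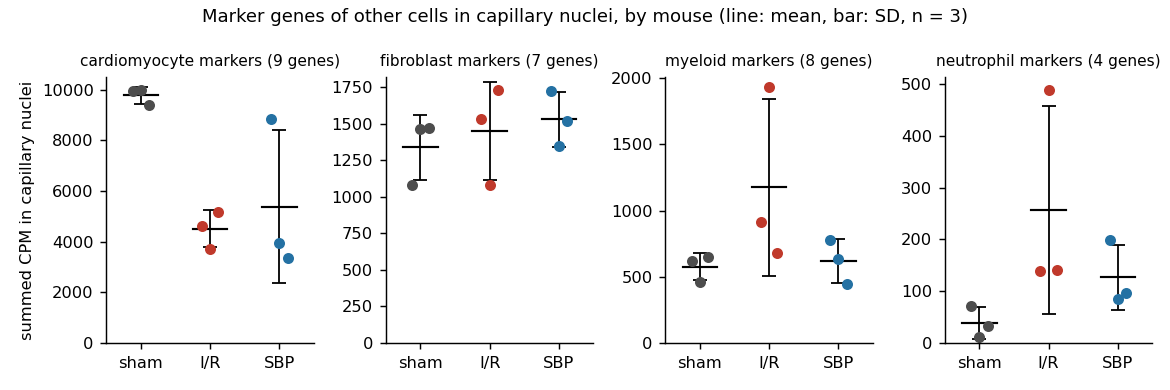
Summed level (CPM, linear axis from 0) of marker genes of 4 other cell types in the capillary nuclei of each mouse, in sham, I/R and SBP. Points are mice, lines means and bars SD (n = 3). Cardiomyocyte markers stood at 9392 to 9990 in sham and 3729 to 5175 in I/R, and I/R replicate 2 was highest for myeloid (1934) and neutrophil (489) markers.

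The first comparison asked whether ischemia and reperfusion, or SBP, changed the abundance of capillary nuclei. They were 8.54%, 12.3% and 15.8% of all nuclei in sham (12.2% ± 3.63, SD, n = 3), 8.97%, 9.10% and 13.3% in I/R (10.5% ± 2.47) and 9.71%, 9.77% and 11.98% in SBP (10.5% ± 1.29). All groups overlapped. The two-sided exact permutation test gave p = 0.7 for I/R against sham, 1 for SBP against I/R and 0.6 for SBP against sham, and adjusted p = 1 for each over the 6 tests of shares. With 3 mice against 3 this test cannot go below 0.1. Of the 16266 nuclei with endothelial genes, capillary nuclei of sham made up 35.6% ± 10.0, those of I/R 33.7% ± 5.81 and those of SBP 31.6% ± 8.01 (exact permutation p = 0.9, 0.7 and 0.6). Where nuclei with any gene of other cells were left out, the mean share of I/R lay 2.17 points above that of sham, against a difference of -1.74 points over all capillary nuclei.

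**Figure D2:**
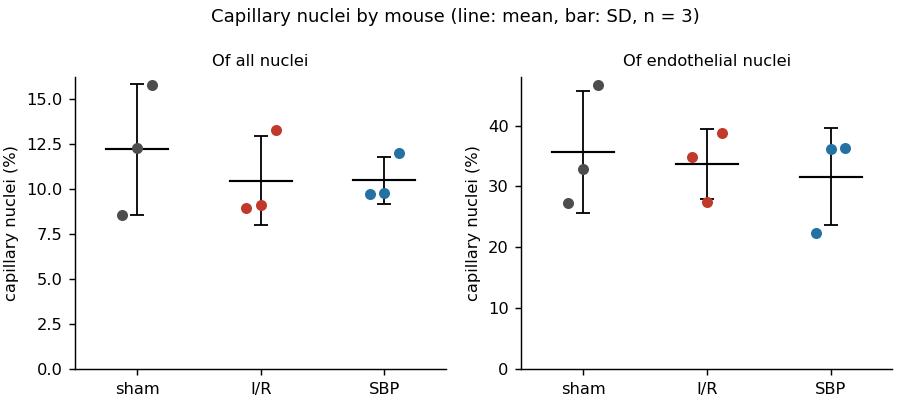
Capillary nuclei of each mouse as a percentage of all nuclei (left) and of endothelial nuclei (right), on axes from 0. Points are mice, lines means and bars SD (n = 3). The groups overlap in both panels, with means of 12.2, 10.5 and 10.5% of all nuclei.

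Gene expression was compared in UMIs summed over the capillary nuclei of each mouse, so that the mouse is the replicate. Calls needed an absolute log2 fold change over 0.25, on the log2(CPM + 1) scale, and a p of at most 0.05 in limma after Benjamini-Hochberg adjustment over all genes tested. A sum does not tell fewer nuclei with a transcript from less transcript per nucleus, and the p-values measure the spread between these mice. Between I/R and sham, 251 of 9629 genes were called, 2.61% of those tested, 173 higher (1.8%) and 78 lower (0.81%). The count was carried by single libraries: it was 48 without I/R replicate 2, 414 without I/R replicate 3, and 99, 70 and 115 without sham replicates 1, 2 and 3. The median log2 fold change of all genes was 0.01, and the mice of I/R and sham did not overlap for 21.2% of genes.

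Most called genes had more UMIs per nucleus in nuclei of other cells. For each, the class of nuclei with the most UMIs per nucleus was found among capillary, cardiomyocyte, fibroblast and myeloid nuclei of the same group. Of the 173 higher genes, 117 were highest in myeloid, 32 in fibroblast and 13 in cardiomyocyte nuclei, and 11 in capillary nuclei. Of the 78 lower genes, 62 were highest in cardiomyocyte, 11 in fibroblast and 1 in myeloid nuclei, and 4 in capillary nuclei. The cardiomyocyte marker sum in capillary nuclei was also lower, and the myeloid sum higher, in I/R than in sham, and their part in these calls was not tested. Nuclei of the other classes held more UMIs each, so a count per nucleus does not put the classes at equal depth. In I/R the mean was 1457 UMIs per capillary, 5660 per cardiomyocyte, 2448 per fibroblast and 2129 per myeloid nucleus. The share of all tested genes highest in each class is not given, so these counts are not set against it.

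**Figure D3:**
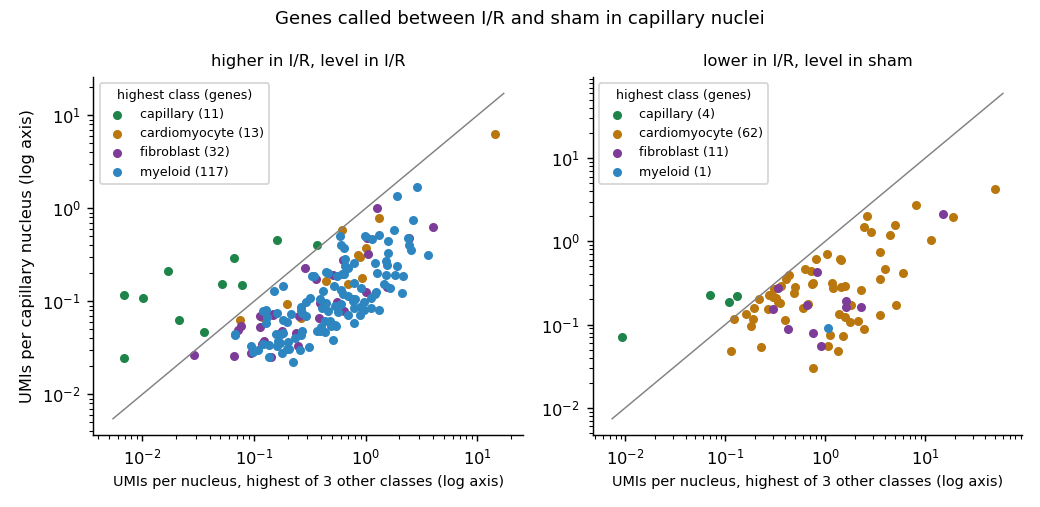
UMIs per capillary nucleus against the highest UMIs per nucleus among cardiomyocyte, fibroblast and myeloid nuclei (both log axes) for the genes called between I/R and sham, higher on the left (levels in I/R) and lower on the right (levels in sham). Each point is a gene, colored by the class with most UMIs per nucleus, and the grey line marks equal levels. Of the genes, 11 of 173 and 4 of 78 lie above the line.

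Among these 4 classes, 15 called genes were highest in capillary nuclei. Endocardial nuclei, a further endothelial class, held more UMIs per nucleus than capillary nuclei for 5 of them, which were Selp, Vwf, Tll1, Itgb3 and Sox7. Selp, which encodes the adhesion receptor P-selectin (chr1:164115264-164150026, GRCm38), was at 6.48, 1.08 and 2.42 CPM in sham, 40.0, 159 and 45.9 CPM in I/R, and 9.37, 26.1 and 14.6 CPM in SBP. The 3 groups did not overlap, with SBP between the others. Selp rose in I/R against sham (log2 fold change 4.17, SE 0.60, adjusted p = 0.00614 in limma), from 7 UMIs in sham to 194 in I/R, and its call was lost only with voom weights (adjusted p = 0.1). In I/R, capillary nuclei held 0.108 UMIs of Selp each, 10.5 times the highest of cardiomyocyte, fibroblast and myeloid nuclei, and endocardial nuclei held 0.274. Selp and Vwf are also venous genes. The 5 other venous markers (Nr2f2, Ephb4, Ackr1, Vcam1 and Bgn) summed to 503, 403 and 439 CPM in sham, 521, 566 and 566 CPM in I/R, and 570.5, 515 and 644 CPM in SBP, so that sham lay below both other groups in this sum too. Among them, Nr2f2 was at 82.0 to 109, 71.1 to 133 and 108 to 159 CPM, Bgn, which fibroblasts also express, at 56.2 to 82.4, 77.7 to 219.8 and 95.9 to 129 CPM, and Ackr1 at 0 to 4.44 CPM in all mice. The part of venous nuclei in the values of Selp and Vwf was not tested.

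Tll1, a metalloprotease of the tolloid family that processes procollagens (chr8:64014931-64206271), was at 15.1, 23.7 and 16.96 CPM in sham, 193, 148 and 104 CPM in I/R, and 65.6, 135 and 99.5 CPM in SBP. Every I/R and SBP heart lay above every sham heart, while I/R and SBP overlapped. Tll1 rose in I/R (log2 fold change 2.91, SE 0.30, adjusted p = 0.000503 in limma) and stayed called under all 22 alternatives. It also rose in SBP against sham (2.33, SE 0.30, adjusted p = 0.00952), a call lost without SBP replicate 2 (adjusted p = 0.052), without sham replicate 3 (0.054) and with voom weights (0.069).

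Grrp1 was at 30.2, 30.2 and 34.7 CPM in sham, 77.7, 75.4 and 87.7 CPM in I/R, and 42.9, 57.1 and 70.4 CPM in SBP, without overlap of any groups. It rose in I/R by 1.31 on the log2 scale (SE 0.22, adjusted p = 0.00944 in limma) and kept its call under all 22 alternatives. Sgk1, a kinase induced by serum and glucocorticoids, was at 112, 91.8 and 155 CPM in sham, 275, 430 and 268 CPM in I/R, and 427, 202 and 251 CPM in SBP. It rose in I/R (1.43, SE 0.29, adjusted p = 0.0233). The call was lost in nuclei without any gene of other cells (1.21, adjusted p = 0.14) and without I/R replicate 2 (1.19, 0.12), sham replicate 1 (1.39, 0.097) or sham replicate 2 (1.24, 0.1). Vwf, the von Willebrand factor that tethers platelets, was at 87.2 to 125 CPM in sham, 154 to 236 CPM in I/R and 180 to 213 CPM in SBP. Sham did not overlap with the rest, and endocardial nuclei held 4.80 UMIs of Vwf each in I/R against 0.295 in capillary nuclei. Its rise (1.01, SE 0.20, adjusted p = 0.0181) lost its call under 7 of the alternatives, among them without I/R replicate 2 (0.12), sham replicate 2 (0.096) or sham replicate 3 (0.097) and in nuclei without genes of other cells (0.25).

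The other higher genes of these 15 were the integrin subunit Itgb3, the ubiquitin ligase Rnf125, the dynein heavy chain Dnah6, Mlec, a lectin of the endoplasmic reticulum, Rai14 and Sh2d4b, all named after their values were seen. Mlec was at 25.9 to 35.5 CPM in sham and 78.3 to 142 CPM in I/R (1.59, adjusted p = 0.00614 in limma) and kept its call under every alternative. Without I/R replicate 2, Itgb3 (adjusted p = 0.11), Rnf125 (0.11), Dnah6 (0.24), Rai14 (0.079) and Sh2d4b (0.25) were no longer called, and their calls were lost under 5, 5, 10, 3 and 15 of the alternatives.

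Of the lower genes among these 15, Sox7, a SOX factor of endothelial development, was at 49.7, 61.5 and 49.3 CPM in sham, 21.1, 8.54 and 18.9 CPM in I/R, and 17.4, 34.7 and 30.3 CPM in SBP. Sham did not overlap with either other group. Sox7 fell in I/R (log2 fold change -1.75, SE 0.35, adjusted p = 0.0181 in limma), a call lost without I/R replicate 2 (0.079) or any of sham replicates 1 (0.066), 2 (0.082) and 3 (0.059). Jam3, a junctional adhesion molecule, was at 121, 162 and 137 CPM in sham, 81.0, 48.4 and 56.8 CPM in I/R, and 53.6, 73.2 and 83.7 CPM in SBP (log2 fold change -1.18, SE 0.24, adjusted p = 0.0174), and was not called without I/R replicate 2 (0.088), sham replicate 2 (0.081) or sham replicate 3 (0.059). Pald1 fell by 0.92 on the log2 scale (adjusted p = 0.0262) and lost its call under 6 of the alternatives, among them without I/R replicate 2 (0.12) or sham replicate 1 (0.14).

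**Figure D4:**
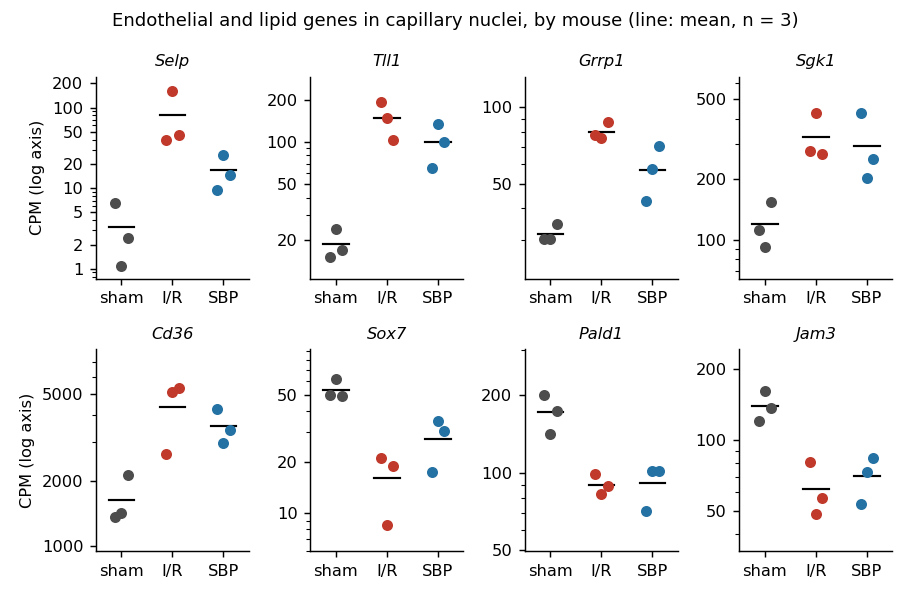
Level (CPM, log axis) of 8 genes in the capillary nuclei of each mouse. Points are mice and lines means (n = 3). Selp, Tll1, Grrp1, Sgk1 and Cd36 stand higher and Sox7, Pald1 and Jam3 lower in I/R than in sham, and the SBP mice of Selp (9.37 to 26.1) lie between sham and I/R.

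Of 20 tested genes of fatty acid and lipid handling, 3 rose in I/R and none fell, against 1.8% of all genes called higher, and the list's median log2 fold change was 0.33. Cd36, the fatty acid receptor, was at 1363, 1427 and 2130 CPM in sham, 2659, 5124 and 5327 CPM in I/R, and 4279, 2974 and 3412 CPM in SBP, and rose in I/R without overlap (1.38, SE 0.27, adjusted p = 0.0181 in limma). Its call was lost without I/R replicate 2 (0.12), sham replicate 1 (0.094) and sham replicate 2 (0.091) and without the filter on low values (0.052). Cardiomyocyte nuclei held more Cd36 per nucleus. In I/R they held a mean of 5660 UMIs each, against 1457 per capillary nucleus, so the Cd36 counts are not at equal depth. The lipid droplet protein Plin2 (1.47, adjusted p = 0.0419, lost under 9 of the alternatives, with 0.2 without I/R replicate 2) and the lipoprotein receptor Lrp1 (1.41, adjusted p = 0.0103, lost without I/R replicate 2, 0.065, and sham replicate 2, 0.055) were the other members called. Plin2 and Lrp1 also had more UMIs per nucleus in cardiomyocyte, fibroblast or myeloid nuclei than in capillary nuclei. Fabp4 was at 851, 1262 and 1755 CPM in sham and 1550, 1650 and 2246 CPM in I/R, with overlap (0.54, adjusted p = 0.299), and lipoprotein lipase, Lpl, at 768 to 1271 CPM in sham and 698 to 1399 CPM in I/R.

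The genes of the rule were tested one at a time in nuclei chosen without that gene. Slc28a2, a sodium-coupled nucleoside transporter (chr2:122426477-122461137), was the 1 of 17 that was called. Of all genes in the main fit 2.61% were called and 0.81% called lower, so the 17 are not set apart by this count. Slc28a2 was at 371, 524 and 434 CPM in sham, 266, 190 and 235 CPM in I/R, and 282, 387 and 441 CPM in SBP, so that I/R lay below both other groups. Slc28a2 fell in I/R (log2 fold change -0.94, SE 0.205, adjusted p = 0.024 in limma), and its difference between SBP and I/R was 0.67 (adjusted p = 0.996). None of the 17 was called without I/R replicate 2, sham replicate 2 or sham replicate 3, and 5 were called without I/R replicate 1. The VEGF receptor Kdr was at 282, 393 and 384 CPM in sham and 344, 315 and 290 CPM in I/R (-0.15, adjusted p = 0.787), and Flt1 had a log2 fold change of 0.10 (adjusted p = 0.916). Vwa3a had 93.0 to 203 CPM in sham and 177 to 767 CPM in I/R (1.65, adjusted p = 0.195).

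Of 25 tested genes of leukocyte adhesion and cytokine response, 7 rose in I/R and none fell, against 1.8% of all genes called higher, and their median log2 fold change was 0.76 against 0.01 for all genes. Beside Selp these were the chemokine Ccl7, the receptors Tnfrsf1a, Il6st and Il4ra, the glycoprotein Lrg1 and the cytokine signaling inhibitor Socs3. Socs3 was at 0, 5.40 and 4.85 CPM in sham, 32.2, 44.1 and 19.9 CPM in I/R, and 28.1, 19.8 and 12.1 CPM in SBP (3.24 for I/R against sham, adjusted p = 0.0196 in limma, and 0.11 without I/R replicate 2). Also without I/R replicate 2, Ccl7 (adjusted p = 0.1), Tnfrsf1a (0.13), Lrg1 (0.076) and Il4ra (0.17) were not called, and their calls were lost under 4, 6, 5 and 7 of the alternatives. Il6st lost its call under 15 of the alternatives, with 0.16 without sham replicate 1. Those other than Selp had more UMIs per nucleus in myeloid, fibroblast or cardiomyocyte nuclei. Selp and Socs3 lay below the level of the filter on low values in every sham mouse. They passed it through I/R and SBP mice, so they could enter the count only as rises. The count and the median include such members. The adhesion molecules Icam1 (0.38, adjusted p = 0.79) and Vcam1 (0.20, adjusted p = 0.821) were not called, and their groups overlapped.

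Lists of angiogenesis, vascular tone and barrier held 0 or 1 call each, beside 2.61% of all genes called. Of 12 tested genes of VEGF, Tie and angiopoietin signaling only Vegfb, a ligand of Flt1, was called (34.6, 38.9 and 43.6 CPM in sham, 13.3, 8.54 and 16.9 CPM in I/R, log2 fold change -1.56, adjusted p = 0.0485 in limma, lost under 10 of the alternatives, with 0.2 without I/R replicate 2). Vegfb is not among the genes named above as highest in capillary nuclei. The cardiomyocyte marker sum in these nuclei was also lower in I/R, and its part in the fall of Vegfb was not tested. None of 17 sprouting genes, 16 transporter genes, 22 genes of vascular tone, 13 Notch genes, 15 hypoxia response genes and 24 interferon and antigen presentation genes was called in either direction, with medians between -0.26 and 0.20. In these lists 5, 5, 4, 3, 3 and 2 genes had an unadjusted p under 0.05, as did 1550 of all 9629 genes. The endothelial nitric oxide synthase Nos3 was at 153, 163 and 188 CPM in sham and 133, 147 and 175 CPM in I/R. Dll4, a Notch ligand of tip cells, was at 71.3, 50.7 and 49.3 CPM in sham, 31.1, 5.69 and 21.9 CPM in I/R and 16.1, 19.8 and 21.8 CPM in SBP, without overlap between sham and the rest (-1.75, adjusted p = 0.077). Edn1, which encodes the vasoconstrictor endothelin-1, was at 19.4, 5.40 and 3.23 CPM in sham and 23.3, 31.3 and 23.9 CPM in I/R (1.71, adjusted p = 0.0936). Jam3 was the only called member of 17 junction and barrier genes, and Sox7 the only one of 24 endothelial transcription factors.

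The calls in the remaining lists, apart from Vwf and Sgk1, were of genes with more UMIs per nucleus in other classes. Over all genes 1.8% were called higher and 0.81% lower, and a list with a single call among 15 genes is not set apart by its count. Of 23 tested genes of TGF beta and mesenchymal activation, Vim, Col1a1, Col1a2, Col3a1 and S100a4 rose, and of 21 basement membrane and matrix genes Col4a1, Timp1 and Mmp14 rose. Timp1 had 2 UMIs in sham and passed the filter through I/R and SBP mice, so it could enter only as a rise. Col1a1, the chain of type I collagen, was at 8.64, 21.6 and 16.2 CPM in sham, 365, 189 and 114 CPM in I/R, and 129, 108 and 64.3 CPM in SBP, but fibroblast nuclei held more of it per nucleus. Col4a1, a chain of basement membrane collagen, was at 400, 300 and 385 CPM in sham, 776, 767 and 562 CPM in I/R, and 466, 383 and 556 CPM in SBP (0.95, SE 0.20, adjusted p = 0.0197 in limma), and was not called without I/R replicate 2 (0.12) or any of sham replicates 1 (0.061), 2 (0.11) and 3 (0.064). Thbs1 joined Vwf among 13 coagulation genes, Fos and Cebpb rose among 21 immediate early and KLF factors, Mt2 and Hmox1 among 16 stress genes, and Sgk1 alone among 15 glucocorticoid responsive genes. Of 7 cell cycle genes that passed the filter, of 20 listed, Top2a rose and Ccnd2 fell. Without I/R replicate 2, Vim (adjusted p = 0.13 in limma), Thbs1 (0.088), Fos (0.19), Cebpb (0.16), Mt2 (0.15), Top2a (0.079) and Ccnd2 (0.085) were not called, nor were Col1a2 and Mmp14 (0.051 each) and S100a4 (0.056). The calls of Mt2 and Cebpb were each lost under 15 of the alternatives, Fos under 9, Top2a under 8, Vim and Thbs1 under 5 each, Ccnd2 and S100a4 under 3 each, Mmp14 under 2, and Col1a1 (thinned to 1000 UMIs) and Hmox1 (voom weights) under 1 each.

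The largest rises were mostly of genes with more UMIs in myeloid nuclei. Spp1, which encodes osteopontin, had no UMI in the 1991 sham capillary nuclei and 843 in I/R, at least 277-fold higher against a limit of 3 counts over the group, and at least 76.7-fold without I/R replicate 1. Its I/R mice were at 764, 45.5 and 123 CPM and its SBP mice at 53.6, 238 and 74.0 CPM. Arg1 (at least 62.5-fold higher), Chil3 (at least 44.1-fold higher) and St18 (at least 32.9-fold higher) also had no UMI in sham, and without I/R replicate 2 these limits were 27.1, 25.3 and 20.3. Lcn2, Timp1, Gpnmb, Il1r2, Adam8 and Serpina3n had 1 to 3 UMIs in sham and 114 to 197 in I/R, with ratios from 39.5 (95% counting interval 13.2 to 194) to 114 (19.98 to 4524). The ratio of Lcn2 was 39.3 without I/R replicate 2, and that of Gpnmb, 64.8 over all mice, was 32.7 without I/R replicate 1. Cd300lf and Mt2 completed the 12 largest rises. Without I/R replicate 2, Lcn2 (adjusted p = 0.081 in limma), Serpina3n (0.11), Mt2 (0.15), St18 and Il1r2 (0.051 each) were not called, and Gpnmb was not called without sham replicate 1 (0.06) or 2 (0.054). With voom weights, Spp1 (adjusted p = 0.22), Arg1 (0.082), Chil3 (0.052), Gpnmb (0.13), Lcn2 (0.16), Serpina3n (0.18), Il1r2 (0.067) and Mt2 (0.19) were not called. Lcn2 and Serpina3n each lost their call under 5 of the alternatives, and St18 also in nuclei thinned to 1000 UMIs (0.082). Of these 12, 8 were highest in myeloid nuclei, 3 in fibroblast nuclei (Timp1, Serpina3n and Mt2) and 1 in cardiomyocyte nuclei (Lcn2), and none in capillary nuclei.

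The largest falls, apart from the clock genes described next, included genes of cardiomyocytes and B cells. Myl2, a ventricular myosin light chain, was at 1955, 2284 and 1968 CPM in sham, 798, 326 and 691 CPM in I/R, and 695, 909 and 599 CPM in SBP. Pgam2, Eno3 and Hs3st5, all highest in cardiomyocyte nuclei, fell likewise. Bank1, a B cell scaffold protein, was at 47.5, 93.9 and 59.0 CPM in sham and 15.5, 9.96 and 2.99 CPM in I/R, and the 4 B cell markers summed to 47.5 to 97.2 CPM in sham and 2.99 to 16.7 CPM in I/R. Hmcn2, Cdh19, Gm20757 and Gm30382 were the other large falls. Cdh19 is 1 of 4 Schwann cell markers, which summed to 54.0 to 78.8 CPM in sham, 16.9 to 25.6 CPM in I/R and 20.6 to 61.6 CPM in SBP, and their part in its fall was not tested. Without I/R replicate 2, Hmcn2 (adjusted p = 0.051 in limma), Cdh19 (0.064), Gm20757 (0.072) and Gm30382 (0.12) were not called, and Pgam2 was not without sham replicate 2 (0.056). The calls of Hmcn2, Cdh19 and Gm30382 were lost under 5, 6 and 4 of the alternatives.

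Circadian clock genes changed in both directions. Of 15 tested members of the list, 2 rose (Arntl and Clock) and 5 fell (Dbp, Hlf, Per3, Nr1d2 and Rora) in I/R, against 1.8% of all genes called higher and 0.81% lower, and 4 were called without I/R replicate 2, sham replicate 1 or sham replicate 2. Dbp lay below the level of the filter on low values in every I/R mouse, so it could enter this count only as a fall. Arntl (chr7:113207465-113314126), the core activator, was at 15.1, 11.9 and 10.5 CPM in sham, 120, 124 and 103 CPM in I/R, and 60.3, 28.5 and 70.4 CPM in SBP. The 3 groups did not overlap, with SBP in between. Arntl rose in I/R (log2 fold change 3.12, SE 0.31, adjusted p = 0.000452 in limma) and kept its call under all 22 alternatives.

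Dbp (chr7:45705088-45710203), an output factor that clock activators drive, was at 51.8, 119 and 71.9 CPM in sham, 3.33, 2.85 and 7.97 CPM in I/R, and 25.4, 60.8 and 26.7 CPM in SBP. Every I/R mouse lay below every other mouse. Dbp fell in I/R (log2 fold change -3.86, SE 0.43, adjusted p = 0.000649 in limma) under all 22 alternatives, from 223 UMIs in sham to 13. It overlaps Sphk2 in the annotation, and reads of overlapping genes may not be told apart. Hlf, a related factor (chr11:90336536-90390895), was at 38.9, 79.9 and 69.5 CPM in sham, 7.77, 14.2 and 16.9 CPM in I/R, and 46.9, 68.2 and 60.7 CPM in SBP, so that SBP and sham overlapped and I/R lay below both. Its fall (-2.19, SE 0.33, adjusted p = 0.00596) was not called only in nuclei without genes of other cells (0.29).

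Per3 (chr4:151003652-151044665), a clock repressor, was at 123, 147 and 132 CPM in sham, 26.6, 39.8 and 48.8 CPM in I/R, and 67.0, 83.1 and 59.5 CPM in SBP, again with no overlap and SBP in between (log2 fold change -1.81 for I/R against sham, SE 0.24, adjusted p = 0.00201 in limma, called under all 22 alternatives). Nr1d2, a repressor of Arntl, was at 219 to 281 CPM in sham, 32.2 to 115 CPM in I/R and 83.0 to 177 CPM in SBP (-2.01, adjusted p = 0.031). Its call was lost without I/R replicate 2 (0.13) and sham replicates 1 (0.11), 2 (0.1) and 3 (0.079), with at least 3 capillary genes per nucleus (0.069) and without the filter on low values (0.087). The relatives Nr1d1 (-2.56, adjusted p = 0.0825) and Tef (-1.60, adjusted p = 0.0672) were not called, and I/R replicate 3 was their highest I/R mouse, with 29.9 CPM of Nr1d1 against 2.22 and 8.54 CPM. Without it, Tef had adjusted p = 0.000469 and Nr1d1 0.00345. Clock rose by 0.94 (adjusted p = 0.0158, and 0.076 without I/R replicate 2) and Rora, an activator of Arntl, fell by 0.95 (adjusted p = 0.0286, and 0.14 without it), calls lost under 3 and 5 of the alternatives.

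**Figure D5:**
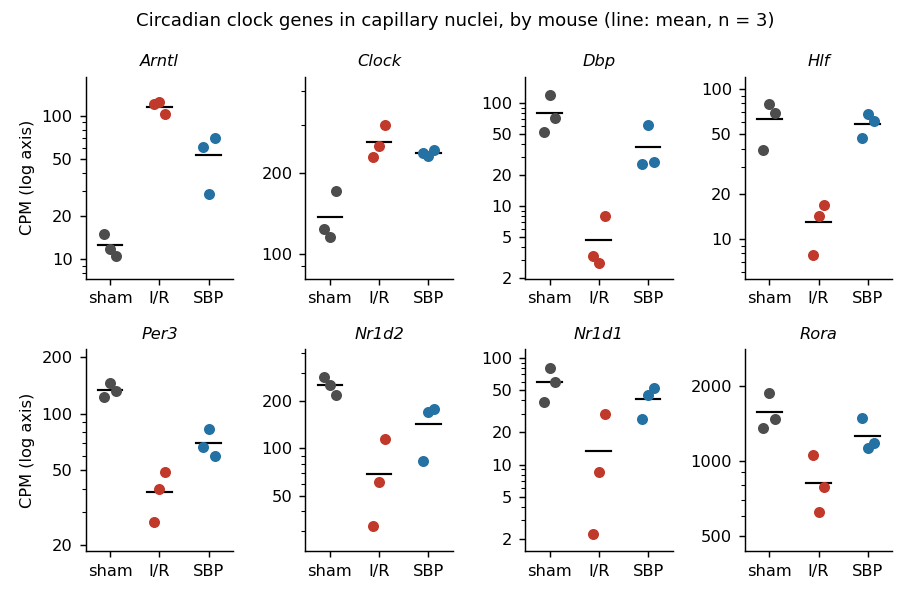
Level (CPM, log axis) of 8 circadian clock genes in the capillary nuclei of each mouse. Points are mice and lines means (n = 3). Arntl is highest in I/R (103 to 124) and lowest in sham, Dbp and Per3 lowest in I/R, and the SBP mice of Arntl and Per3 lie between the other groups.

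The same genes differed between groups in other nuclei of these hearts. Mean Arntl levels in sham, I/R and SBP, as CPM of the plain total, were 12.8, 115 and 52.2 in capillary, 10.2, 125 and 28.4 in endocardial, 8.0, 77.5 and 34.6 in cardiomyocyte, and 9.2, 170 and 39.5 in fibroblast nuclei. In myeloid nuclei they were 39.6, 113 and 137, where SBP was not between the others. For Dbp the means were 82.5, 4.7 and 37.4 in capillary, 83.9, 9.6 and 50.8 in endocardial and 51.7, 4.6 and 10.7 in myeloid nuclei. Clock transcripts follow the hour of the day, and the sources used here give no hour of collection for any heart.

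The promoters of Arntl, Per3 and Dbp are shown because these clock genes, the first of which rose and the others fell in I/R, were called under all 22 alternatives. The windows come from RefSeq on GRCm38.p6, 250 bases before to 50 after an annotated start, 5′ to 3′ on the strand of the gene. Both strands were searched for the E-box CACGTG bound by Arntl and Clock, the D-box TTANGTAA bound by Dbp, Tef and Hlf, and the ROR element, of 10 letters, bound by Rora and the Nr1d proteins, and matches are in capitals. Of 32851 windows of 300 bases in RefSeq, several per gene, 7.15% held the E-box, 2.32% the D-box and 0.606% the ROR element. The window of Arntl at chr7:113207261-113207560 (+ strand) held 1 ROR element, that of Per3 at chr4:151044616-151044915 (- strand) held 2 D-boxes, and that of Dbp at chr7:45704997-45705296 (+ strand) held none of the 3. The other window of Arntl and those of Clock, Nr1d2, Hlf, Rora, Nr1d1 and Cry2 held none either, and each of the 2 windows of Tef held 1 E-box.
Arntl: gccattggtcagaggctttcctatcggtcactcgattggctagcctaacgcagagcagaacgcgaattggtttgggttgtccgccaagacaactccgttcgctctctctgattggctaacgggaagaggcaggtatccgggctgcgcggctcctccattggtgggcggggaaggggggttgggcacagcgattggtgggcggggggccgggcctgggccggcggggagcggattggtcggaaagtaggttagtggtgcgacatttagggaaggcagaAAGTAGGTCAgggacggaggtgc
Per3: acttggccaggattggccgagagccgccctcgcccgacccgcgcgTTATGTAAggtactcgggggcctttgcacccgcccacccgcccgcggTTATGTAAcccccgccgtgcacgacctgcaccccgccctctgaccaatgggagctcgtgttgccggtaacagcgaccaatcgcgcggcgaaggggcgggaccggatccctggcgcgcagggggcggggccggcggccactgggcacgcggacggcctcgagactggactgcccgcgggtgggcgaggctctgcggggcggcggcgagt
Dbp: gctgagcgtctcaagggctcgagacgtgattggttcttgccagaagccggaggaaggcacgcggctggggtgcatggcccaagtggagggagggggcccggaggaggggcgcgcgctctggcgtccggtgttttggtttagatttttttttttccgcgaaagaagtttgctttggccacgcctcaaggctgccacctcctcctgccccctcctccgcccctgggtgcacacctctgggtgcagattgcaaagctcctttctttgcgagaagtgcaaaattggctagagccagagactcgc
A match describes letters in the window and not binding, and the absence of a match says only that these letters are not in this window.

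The comparison of SBP with I/R bears on the drug, and it uses the same I/R mice as the comparison with sham. None of 9629 genes was called in limma (0% of those tested), while 431 had an unadjusted p under 0.05. The smallest adjusted p was 0.117, for Hlf (log2 fold change 2.14, SE 0.33) and Dbp (2.75, SE 0.43), which were higher in 3 of 3 SBP mice than in any I/R mouse. Each was called under 3 of the alternatives: Dbp with at least 3 capillary genes per nucleus (adjusted p = 0.0162), Hlf with the replicate block (0.0257), and both without the filter on low values (0.00198 each) and without I/R replicate 3 (0.0259 for Dbp and 0.0444 for Hlf), where Tef was called too. Under other alternatives their adjusted p reached 0.999.

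Of the 15 clock genes, 9 had an unadjusted p under 0.05 between SBP and I/R, as did 431 of all 9629 genes. Their median log2 fold change was 0.65, against -0.02 for all genes. Arntl differed by -1.20 (SE 0.31) and Per3 by 0.87 (SE 0.24), each with adjusted p = 0.992 in limma. Selp differed by -2.05 (SE 0.60, adjusted p = 0.992), Tll1 by -0.58 (SE 0.30) and Sox7 by 0.76 (SE 0.35). The 8 other genes with the smallest p, all at adjusted p = 0.992, were Ltbp1, Nuak1, Hmox1, Yap1, Arntl, Mertk, Gmip and Ms4a6d. Ltbp1, which binds latent TGF beta, was at 193, 206 and 188 CPM in SBP and 141, 112 and 101 CPM in I/R. Hmox1, heme oxygenase 1, was at 8.04, 14.9 and 12.1 CPM in SBP and 99.9, 37.0 and 25.9 CPM in I/R. For both genes the SBP and I/R mice did not overlap, as was so for 8.05% of all genes.

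Genes that the study discusses for endothelial cells were taken as a list, chosen from these samples and so no independent evidence. Of 23 tested, Grn (lost under 6 of the alternatives, with adjusted p = 0.1 in limma without I/R replicate 2) and Spp1 were called in I/R against sham, none in SBP against I/R and Spp1 in SBP against sham, where 2.61%, 0% and 0.26% of all genes were called. Vegfc, a growth factor for Flt4 and Kdr, was at 281, 399 and 435 CPM in sham, 286, 184 and 224 CPM in I/R, and 264, 481 and 552 CPM in SBP, with overlap of I/R and SBP (0.85 for SBP against I/R, SE 0.28, adjusted p = 0.992 in limma). The cell cycle inhibitor Cdkn1a was at 56.6, 159 and 172 CPM in I/R and 58.9, 31.0 and 38.8 CPM in SBP (-1.46, SE 0.58), and the taurine transporter Slc6a6 at 384, 663 and 717 CPM in I/R and 897, 752 and 1208 CPM in SBP (0.72, SE 0.26). Neither was called.

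Between SBP and sham 25 genes were called (0.26%), and the mice of SBP and sham did not overlap for 19% of all genes. Of the 25, 18 were higher (0.187%) and 7 lower (0.0727%), against 21 and 15 when CPM were scaled to the plain total. By UMIs per nucleus, the higher genes were highest in myeloid nuclei for 13, in fibroblast nuclei for 4 and in capillary nuclei for 1, which was Tll1. The share of all tested genes highest in each class is not given here either. The higher genes with the largest rises were Spp1 (at least 105-fold higher, and 54.2-fold without SBP replicate 2), Arg1, Timp1, Chil3, Cd300lf, Adam8, Sirpb1b, Ccl6, Col1a1, Tll1, Lox and Pik3r5, and Arntl was among the others (1.92, SE 0.31, adjusted p = 0.025 in limma, lost under 5 of the alternatives, with 0.31 in nuclei without genes of other cells). Each of these 13 calls was lost under at least 1 of the alternatives, up to 12 for Lox. The lower genes, Hrc, Eno3, Cox7a1, Tnni3, Mybpc3, Ndufs6 and Mb, were all highest in cardiomyocyte nuclei, and Tnni3, troponin I, was at 856, 966 and 871 CPM in sham and 348, 359 and 339 CPM in SBP. The count was 1, 2 and 3 without sham replicate 3, sham replicate 2 and SBP replicate 2, 15 without SBP replicate 3, 78 without SBP replicate 1, and 82, 72 and 73 without I/R replicates 1, 2 and 3, which share in the estimate of spread.

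Capillary nuclei were last set against the 3048 endocardial nuclei of the same mice, by testing the difference of their responses. Of 9981 genes, 4 differed in their response to I/R (0.0401%), 3 with a higher (0.0301%) and 1 with a lower (0.01%) log2 fold change in capillary nuclei. For Tll1 the capillary log2 fold change exceeded the endocardial one by 3.16 (SE 0.23, adjusted p = 2.05e-07 in limma). Endocardial nuclei held 105, 145 and 111 CPM of Tll1 in sham, 126, 97.7 and 81.0 CPM in I/R, and 93.2, 164 and 148 CPM in SBP, so that the capillary range of I/R overlapped with the endocardial range of each group. Id2, an inhibitor of basic helix-loop-helix factors, was at 8.64, 8.64 and 8.89 CPM in sham, 31.1, 32.7 and 31.9 CPM in I/R, and 32.1, 24.8 and 23.1 CPM in SBP capillary nuclei, against 96.5 to 193 CPM in endocardial nuclei (difference 1.82, adjusted p = 0.0277). The other 2 genes were Hpgd and Tgm2. The count was 16 without I/R replicate 1, 1 without I/R replicate 3, 20 without SBP replicate 1 and 2 without sham replicate 1. In response to SBP against I/R no gene differed (0%, smallest adjusted p = 0.441, 383 genes at an unadjusted p under 0.05), with 3 genes without I/R replicate 1 and 1 without SBP replicate 1.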

How the data were processed

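Per the labels' processing notes, the authors used Cell Ranger 4.0, STAR and Seurat 3.2.0 with GRCm38. The study's methods name other versions of Cell Ranger and Seurat. The deposited values are natural log values, ln(1 + 10000 × UMIs of a gene / UMIs of the nucleus), without mitochondrial genes. UMIs were recovered from the smallest step of each nucleus, and 99.9996% of values came out whole within 0.1 in the library with the lowest share. The members and the gene lists were chosen with earlier results of these data known. UMIs were summed per mouse over capillary nuclei, scaled by trimmed means (TMM, computed here), and log2(CPM + 1) was tested in limma 3.58.1 (trend, robust, R 4.3.3) over all 9 mice, with Benjamini-Hochberg adjustment. Tested genes had, in at least 3 mice, the CPM that 10 UMIs make in the median library, and at least 15 UMIs over all mice. A gene that met this only through mice of groups where it was high could be called in that direction alone. Genes of the rule got no p in that fit. Shares were compared by exact permutation. The test was checked on simulated data. A doublet caller, Scrublet, marked 85 nuclei (0.173%, 13 of them capillary), too few to be taken as working, so no nucleus was removed. Named genes were the 12 largest called rises and falls of each comparison, or the 10 smallest p where fewer than 10 genes were called, called list members, genes of the rule, genes the study names, and others said to be chosen later. Intervals and limits of 3 counts cover counting error only. Replicates are separate mice. Genes with near-identical copies (Mt1 and Mt2, Sirpb1b and Sirpb1c) and overlapping genes (Nr1d1 and Thra, Mhrt and Myh7) are uncertain. Coordinates are from GENCODE vM21. The values of 1 of the called genes are not reported here.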

Additional observations from a re-analysis of the deposited data

Results flagged for a closer look

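For 4 genes the response to ischemia and reperfusion differed between capillary and endocardial nuclei of the same mice, by limma on the per-mouse differences with Benjamini-Hochberg adjustment, and each difference is the capillary minus the endocardial log2 fold change of I/R against sham. For Tll1 it was 3.16 (adjusted p = 2.05e-07), and its call was lost only in nuclei without genes of other cells (2.26, adjusted p = 0.053).

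For Hpgd, which degrades prostaglandins, the difference was -2.68 (SE 0.40, adjusted p = 0.0209). Capillary nuclei held 28.1, 17.3 and 32.3 CPM in sham and 8.88, 5.69 and 12.96 CPM in I/R, while endocardial nuclei held 406, 65.9 and 249 CPM in sham and 470, 258 and 771 CPM in I/R. The call was lost without I/R replicate 3 (adjusted p = 0.068) and without sham replicate 3 (0.084).

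For Id2 the difference was 1.82 (SE 0.30, adjusted p = 0.0277), with adjusted p between 0.068 and 0.162 without I/R replicate 2, I/R replicate 3, sham replicate 1 or sham replicate 2, 0.077 with the replicate block and 0.655 in nuclei without genes of other cells. In the capillary nuclei alone Id2 rose (1.76, adjusted p = 0.00626), a call lost in nuclei thinned to 1000 UMIs (1.62, adjusted p = 0.24) and in nuclei without genes of other cells (2.49, adjusted p = 0.18). For Tgm2, a transglutaminase, the difference was 1.27 (SE 0.22, adjusted p = 0.029), from 175, 94.997 and 149 CPM in sham to 135, 327 and 349 CPM in I/R in capillary nuclei, and from 215, 132 and 133 to 64.7, 185 and 138 CPM in endocardial nuclei. Its call was lost without I/R replicate 3 (0.095), SBP replicate 3 (0.056), sham replicate 1 (0.147) and sham replicate 2 (0.157), with the replicate block (0.0616) and in nuclei without genes of other cells (0.346). What these differences come from was not tested.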

How the results depend on the processing

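No call of a named gene turned its direction under the alternatives, and 14 of 87 named calls held under each of up to 22, with 406 losses of a call in all. The I/R against sham count of 251 genes was 166 in nuclei thinned to 1000 UMIs, 148 with voom weights and 48 to 414 with 1 mouse left out. The SBP against I/R count of 0 was 1 with at least 3 capillary genes, 2 with no filter on low values, and 0 to 3 with 1 mouse left out. The SBP against sham count of 25 was 38 with Scrublet doublets removed, 98 with at least 3 capillary genes, 169 with nuclei weighed equally, 116 with no filter, 101 in nuclei without genes of other cells, 139 with only SBP and sham mice, 16 with a pseudocount of 5, 69 thinned, 2 with voom weights and 1 to 82 with 1 mouse left out. The 4 differences from endocardial nuclei were 10 with no filter, 1 in nuclei without genes of other cells and 1 to 20 with 1 mouse left out, and for SBP against I/R 0 to 3. Calls among genes of the rule were 0 to 5 (I/R against sham) and 0 to 1 (SBP against sham). Replicate numbers are shared by the groups, but did not pair the mice: over 9 pairs r was -0.0957 to 0.203, with 1 pair over 0.1, and 2 of 9 mice correlated best with their own number. With a replicate block the counts were 254, 1 and 15 for the 3 comparisons and 2 for the difference from endocardial nuclei. Differences in shares changed sign. Of all nuclei, I/R minus sham was 2.17 points without genes of other cells and -3.57 to 0.0585 with 1 mouse left out, SBP minus I/R was -0.122 thinned, -0.231 without genes of other cells and -0.723, -0.720, -0.655 and up to 1.45 with 1 mouse left out, and SBP minus sham 1.94 and -3.55 to 0.0829. Of endothelial nuclei, I/R minus sham was 2.49 thinned, 0.280 without genes of other cells, and -6.10 to 3.62 with 1 mouse left out (1.22 without I/R replicate 2), SBP minus I/R -5.26 to 2.53 (0.452 without I/R replicate 3), and SBP minus sham -8.20 to 1.53 (0.590 without SBP replicate 1). The cause of these shifts was not tested. The fold limits without 1 library and the venous sum without Selp and Vwf were chosen after seeing the data. Depth limits genes under about 10 UMIs a mouse.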
